A study of Homo sapiens with 8 samples.

Results

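The genes described here are 48 translation factors, the proteins that start, extend and end the synthesis of a polypeptide on the ribosome, together with the kinase and the binding proteins that restrain them. They were taken from a fixed list of gene symbols, and their probe sets were found through the annotation of the array platform. RNA came from HT1080, a human fibrosarcoma cell line, and was read on 8 Affymetrix U133 Plus 2.0 arrays. The cells were cultured for 18 h in 2DG stress conditions (10 mM 2-deoxy-D-glucose, a glucose analogue that mimics hypoglycemia) with 10 µM compound C (2DG+CC), with 10 µM versipelostatin (2DG+VST), with 100 µM phenformin (2DG+Phen) or with no compound (2DG), and in normal growth conditions with the same doses of compound C (CC), versipelostatin (VST) or phenformin (Phen) or with no compound (Control). Each condition had 1 array, so a difference between conditions is a difference between 2 arrays, with no replicate check, no error and no p-value. Values are log2 intensities, and a difference of 1 on this scale is a 2-fold difference, the limit used here for a call. Of the 48 genes, 41 were measured, which means that a probe set annotated to that gene alone reached a log2 value of 6 on at least 1 array, against 8429 measured genes in the whole series. All 41 were over this limit on all 8 arrays. Where a gene had several such probe sets, the brightest stood for it.

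Of the other 7 genes, EIF4A1, EEF1B2 and EEF1G were read only by probe sets shared with other genes, and EIF3C and EIF4A2 had a probe set of their own that stayed under the limit besides shared ones. EIF4G3 and EEF1E1 were not analysed here.

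Translation starts when the small ribosomal subunit, carrying the initiator tRNA on eIF2 and held together by eIF3, is brought to the capped end of an mRNA by the eIF4 factors and scans to a start codon. The elongation factors eEF1A and eEF2 then drive each cycle of codon reading, and the release factors end it. In the unfolded protein response, which 2DG sets off, the kinase PERK phosphorylates the alpha subunit of eIF2, and this blocks the exchange factor eIF2B and slows initiation. A second brake is set by the 4E-BP repressors, which hold the cap-binding protein eIF4E when mTOR signalling is low. Many translation factor mRNAs also begin with a C and a run of pyrimidines, the terminal oligopyrimidine or TOP tract, through which their translation follows mTOR signalling. An array reads mRNA, so neither phosphorylation nor translation was measured here.

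The first bases of the transcript are shown because the measured genes were later divided by them. A RefSeq start (GRCh38.p14) was found for 40 of the 48 genes. A pyrimidine start was defined as a C at the annotated start followed by at least 4 C or T. It was present in 11 of these 40 genes (27.5%), or in 11 of their 56 listed starts (19.6%), against 1429 of 35116 starts of all genes (4.07%) and 988 of 15842 protein-coding genes (6.24%). Each line gives 30 bases of the strand that reads as the mRNA does, 10 before the start and the first 20 of the transcript, with the pyrimidine tract in capitals:
EEF1A1, chr6:73521013-73521042, minus strand: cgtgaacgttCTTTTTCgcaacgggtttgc
EEF1B2, chr2:206159885-206159914, plus strand: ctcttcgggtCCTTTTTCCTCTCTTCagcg
EEF2, chr19:3985444-3985473, minus strand: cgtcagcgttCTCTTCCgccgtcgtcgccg
EIF2A, chr3:150546777-150546806, plus strand: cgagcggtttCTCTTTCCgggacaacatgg
EIF2S3, chrX:24054946-24054975, plus strand: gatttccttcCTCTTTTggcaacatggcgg
EIF3D, chr22:36529147-36529176, minus strand: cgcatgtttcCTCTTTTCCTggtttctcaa
EIF3F, chr11:7987327-7987356, plus strand: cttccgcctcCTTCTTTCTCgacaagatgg
EIF3K, chr19:38619178-38619207, plus strand: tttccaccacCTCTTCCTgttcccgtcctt
EIF3M, chr11:32583821-32583850, plus strand: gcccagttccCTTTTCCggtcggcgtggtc
EIF4A2, chr3:186783567-186783596, plus strand: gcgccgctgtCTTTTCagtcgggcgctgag
EIF4B, chr12:53006446-53006475, plus strand: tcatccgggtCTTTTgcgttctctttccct

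For comparison, the starts of 4 genes that differed at least 2-fold in some comparison had no such tract, and are given without capitals, EIF5 with 2 listed starts:
EIF5, chr14:103334227-103334256, plus strand: ggcgttgttcagtcagagcgagaacattcc
EIF5, chr14:103334878-103334907, plus strand: ggcacccctcggccgtgtgtcgcttcccgg
EIF1B, chr3:40309697-40309726, plus strand: cattttgtgcgagaagccgcagcgccgcct
EIF4EBP2, chr10:70404135-70404164, plus strand: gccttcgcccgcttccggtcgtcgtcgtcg
EEF2K, chr16:22206268-22206297, plus strand: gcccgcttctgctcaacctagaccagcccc

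The longest tract was that of EEF1B2, with 16 bases, and the shortest that of EIF4B, with 5. Known elements of the stress response were looked for on both strands of the 300 bases around each start (250 before, 50 after). The C/EBP-ATF composite element TGATGCAA was in none of the 40 genes, against 0.866% of all starts, and the unfolded protein response element TGACGTGG was also in none, against 0.729%. The cyclic AMP response element TGACGTCA was found in EEF2, against 1.85% of all starts, and the ER stress response element, CCAAT and CCACG with 9 bases between them, in EIF2A, against 0.0769%. These matches describe letters only.

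The arrays had similar medians, 3.12 to 3.28 over all probe sets, but the measured genes had medians of 7.33 to 7.35 on the 3 arrays of 2DG with a compound, against 7.60 to 7.69 on the other 5. The poly-A controls, RNAs added to each sample in fixed amount, read 1.04, 0.60 and 0.44 higher on the 2DG+CC, 2DG+VST and 2DG+Phen arrays than on the 2DG array, and 0.33 higher on the 2DG array than on the Control array. Scaling on these controls puts the median of all measured genes at -1.27, -0.79 and -0.70 in the 3 comparisons with 2DG, against -0.23, -0.18 and -0.26 as deposited. Centring each array on its expressed probe sets puts it at -0.02, 0.04 and 0.02. In RNA from a whole culture, a lower level in every cell and fewer cells that express a gene cannot be told apart. Of 6 mesenchymal markers 4 were over the limit (VIM at 13.24 to 13.65), none of 4 epithelial, 4 leukocyte and endothelial and 2 hepatocyte markers was, and NT5E and S100A4 were under it.

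The first comparison asked what glucose stress alone was accompanied by. Under 2DG stress without a compound, no translation factor differed 2-fold from normal growth conditions on its brightest probe set, where 3.06% of all measured genes were at least 2-fold higher and 1.90% lower. The largest difference downwards was that of EIF4E, the cap-binding protein itself, at 8.74 on the 2DG array, against 9.72 on the Control array (-0.98). The largest upwards was that of EIF2A, a separate initiator tRNA-binding factor that is not a subunit of eIF2, at 11.62 on the 2DG array, against 11.04 on the Control array (0.59). The median difference of the 41 genes was 0.14, against 0.01 for all measured genes, and it was -0.18 with the arrays scaled on the poly-A controls. At a limit of 1.5-fold, only these same 2 genes were counted, EIF2A as higher and EIF4E as lower, against 10.8% and 7.30% of all measured genes. A second probe set of EIF4B, 211937_at, was at 10.47 in 2DG, against 9.43 in Control (1.03), where the brightest was at 0.36. Of the probe sets other than the brightest, it was the only 1 called higher here, and 3 were called lower. These were 239848_at of EIF3M (-1.82), 225276_at of GSPT1 (-1.16) and 201018_at of EIF1AX (-1.11). Their brightest probe sets were at 0.33, 0.20 and -0.29. The EIF3M probe set was under the limit on the 2DG and Control arrays.

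Compound C is a kinase inhibitor used against AMPK and BMP receptors, versipelostatin a macrocyclic natural product and phenformin a biguanide that inhibits mitochondrial respiration, and the study set them side by side as inhibitors of the unfolded protein response. The compounds alone left most of the list within 1.5-fold of normal growth conditions. On the brightest probe sets, no gene of the list was 2-fold higher or lower with compound C. Of all measured genes, 3.88% were higher and 2.70% lower. With versipelostatin there was again none, where 2.46% were higher and 2.48% lower. With phenformin EIF5 was lower and none was higher, where 2.17% of all measured genes were lower and 2.66% higher. At 1.5-fold, compound C had 2 genes higher, against 12.7% of all measured genes, and none lower, against 9.38%. Versipelostatin had 2 higher, against 9.41%, and 1 lower, against 10.7%. Phenformin had none higher, against 9.22%, and 6 lower, against 10.9%. EIF4EBP1 and EIF2B2 were the genes higher with compound C, and EIF4EBP1 and EEF2K those higher with versipelostatin. The probe sets of EEF2K went opposite ways with versipelostatin, the brightest at 0.62 and 225546_at at -0.65. The 6 lower with phenformin were EIF5, ETF1, EIF3B, EIF2B4, EIF4E and EIF3J. The 4 comparisons of 2DG, CC, VST and Phen all used the same Control array, so they are not independent of one another.

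Under 2DG stress, each compound was associated with far more differences over the array, and the translation factors took a smaller share of them. With compound C 3 of 41 passed the 2-fold limit downwards (EEF2K, EIF2S2 and EIF1B), where 25.4% of all measured genes were lower. None was higher, where 8.33% of all measured genes were. With versipelostatin 2 were lower (EIF3A and EIF5), where 20.0% of all measured genes were lower, and none was higher, where 4.09% were. With phenformin 1 was lower (EIF4EBP2), where 21.8% of all measured genes were lower, and none was higher, where 4.84% were. The medians of the 41 genes were -0.10, -0.06 and -0.08, against -0.23, -0.18 and -0.26 for all measured genes. The order of these medians depended on the setting: they were -0.19, -0.15 and -0.13, against -0.13, -0.08 and -0.11, after quantile normalization, and -0.10, -0.03 and -0.06, against -0.02, 0.04 and -0.03, among genes that reached a log2 value of 9. With the arrays centred on their expressed probe sets, the shares of all measured genes that were lower became 20.9%, 14.8% and 15.2%, those that were higher 11.9%, 7.33% and 8.65%, and the medians of the 41 genes turned positive, at 0.11, 0.17 and 0.21. With poly-A scaling 31 of the 41 genes were at least 2-fold lower in 2DG+CC, against 62.2% of all measured genes.

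At 1.5-fold, compound C in 2DG had 2 genes higher (EIF5A and EIF4E2), against 16.6% of all measured genes, and 5 lower, against 37.0%. Versipelostatin in 2DG had 2 higher (EIF2B3 and EIF4E2), against 11.9%, and 5 lower, against 32.1%. Phenformin in 2DG had EIF4E2 alone higher, against 11.5%, and 4 lower, against 35.4%. EIF4E2 and EIF4EBP2 were past 1.5-fold with each of the 3 compounds, EIF4E2 upwards and EIF4EBP2 downwards, and these 3 comparisons share the 2DG array.

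**Figure D1:**
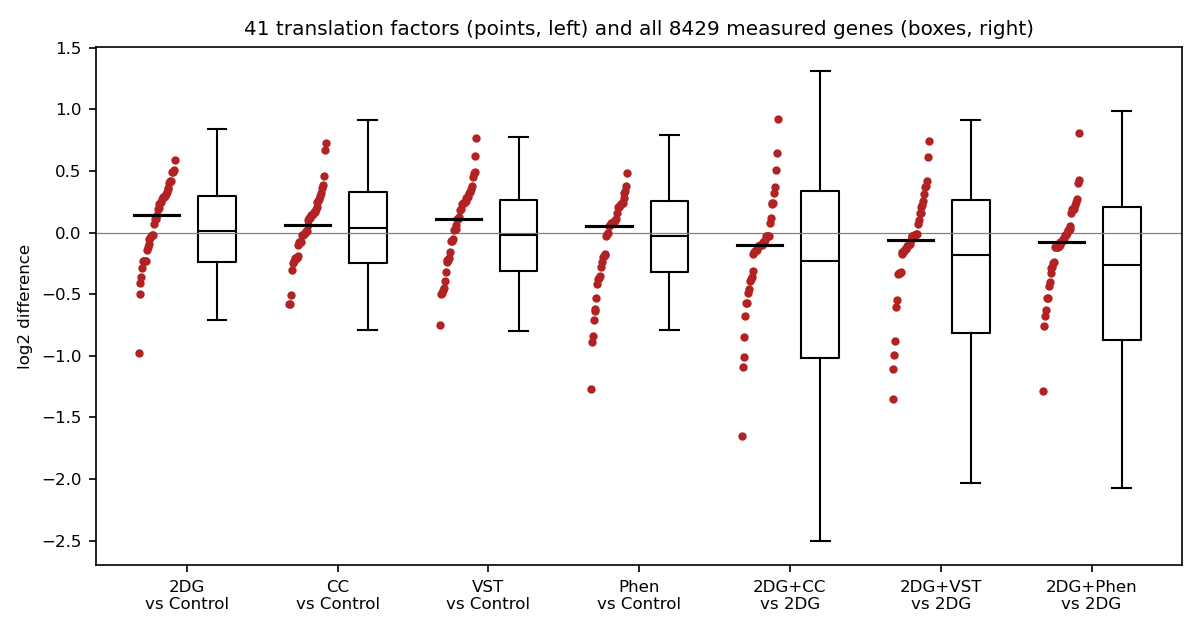
Log2 difference (y axis) in each of 7 comparisons, 1 array against 1 array; red points are the 41 translation factors in order of value with their median as a bar, boxes give the quartiles, median and 5th to 95th percentile of all 8429 measured genes. In 2DG with compound C the factors lay between -1.65 and 0.92, with quartiles of -0.38 and -0.03, against quartiles of -1.02 and 0.34 for all measured genes.

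Over all 7 comparisons, 6 of the 41 genes (14.6%) differed at least 2-fold in at least 1, against 4324 of 8429 measured genes (51.3%), and all 7 calls were downwards. Lower calls also outnumbered higher ones over all measured genes in 2DG+CC (25.4% and 8.33%), 2DG+VST (20.0% and 4.09%) and 2DG+Phen (21.8% and 4.84%). With centred arrays 1 of the 41 genes was called upwards in 2DG+CC and 1 in 2DG+Phen. The range over the 8 arrays had a median of 0.62 for the translation factors and 1.33 for all measured genes. It was under 1 for 31 of the 41 (75.6%), against 2711 of 8429 (32.2%). The factors are bright on the array, and among genes that reached a log2 value of 9 the same shares were 28 of 36 (77.8%), against 1214 of 2744 (44.2%), with 4 of 36 (11.1%) called in some comparison, against 1098 (40.0%). The smallest ranges were those of EEF1A1, which delivers aminoacyl-tRNA to the ribosome, at 0.10, of EIF3E, a subunit of eIF3, at 0.16, and of EIF4G2, an eIF4G relative that does not bind eIF4E, at 0.23. The brightest probe set of EEF1A1 read from 13.80 to 13.90, and 3 others lay between 13.09 and 13.55, but the dimmer 227708_at ran from 8.45 in Control to 9.30 in 2DG+VST. How far the brightest probe sets were saturated was not tested.

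**Figure D2:**
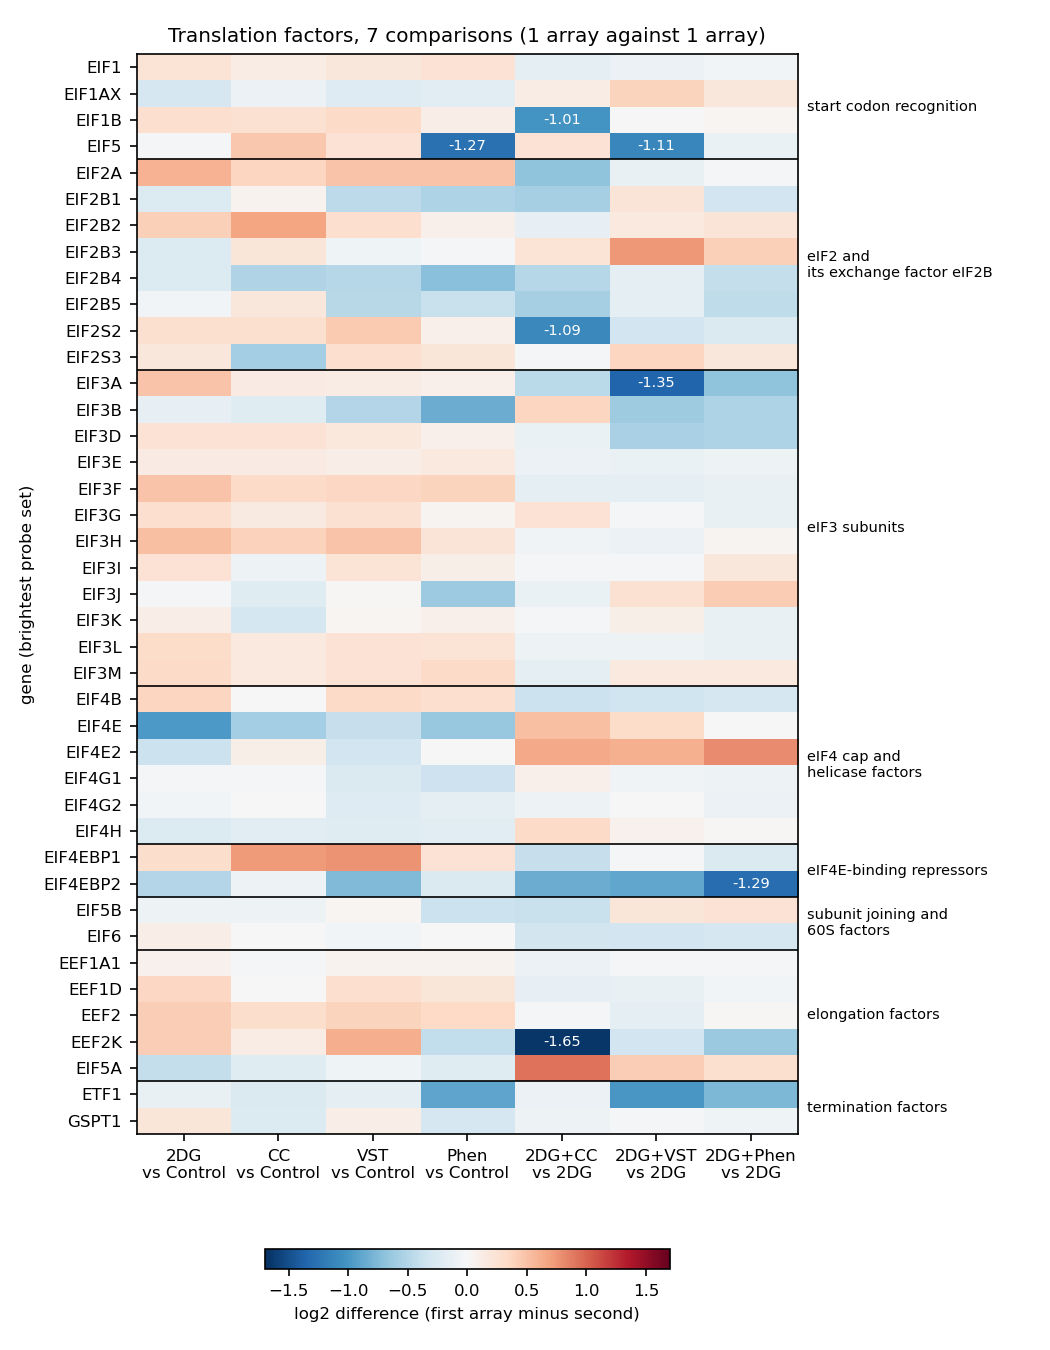
Log2 difference (colour, first array minus second) of the 41 measured translation factors (rows, grouped by role) in the 7 comparisons (columns). Numbers mark the 7 differences of at least 2-fold, of which 3 are in 2DG+CC, 2 in 2DG+VST, 1 in 2DG+Phen and 1 in Phen.

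Among the factors that select the start codon, EIF5 gave the only 2-fold difference of a brightest probe set in normal growth conditions. Its product, eIF5, makes eIF2 hydrolyse its GTP when the initiator tRNA meets a start codon. Its brightest probe set read 11.46 in 2DG+CC, 10.10 in 2DG+VST, 11.11 in 2DG+Phen, 11.21 in 2DG, 11.69 in CC, 11.47 in VST, 9.96 in Phen and 11.23 in Control. The Phen and 2DG+VST arrays stood below the other 6, which lay between 11.11 and 11.69. The difference was -1.27 in Phen against Control and -1.11 in 2DG+VST against 2DG, while versipelostatin alone was at 0.24 against Control and phenformin in 2DG at -0.11 against 2DG. In 2DG+VST the call was lost with centred arrays (-0.89) and with the median over probe sets (-0.49).

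EIF5 had 5 probe sets over the limit, and all 5 were at least 2-fold lower in Phen than in Control, by -1.01 to -1.47 on the log2 scale. In 2DG+VST against 2DG they spread more widely, from -0.31 to -2.29, and 3 of the 5 passed 2-fold. The probe set 208707_at differed from the brightest in VST alone (-1.17) and in 2DG+CC (1.53), but lay between 3.82 and 6.47, mostly under the limit.

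EIF1B is a close relative of EIF1, which keeps the scanning ribosome from starting at the wrong codon. It read 9.83 in 2DG+CC, 10.83 in 2DG+VST, 10.88 in 2DG+Phen, 10.85 in 2DG, 10.82 in CC, 10.89 in VST, 10.67 in Phen and 10.56 in Control. The other 7 arrays lay between 10.56 and 10.89, all above 2DG+CC, and the difference from 2DG was -1.01, at the limit of a call and -0.80 with centred arrays. EIF1 itself stayed between 13.07 and 13.31 on its brightest probe set, a range of 0.24, and was at -0.15 in the same comparison. EIF1AX, which helps eIF1 in scanning, ranged over 0.38 on its brightest probe set. Its dimmest, 201018_at, ran from 6.05 in 2DG+Phen to 8.36 in Control. It was at -1.11 in 2DG and -1.25 in Phen against Control, and at -1.20 in 2DG+Phen against 2DG. The brightest was at -0.29, -0.18 and 0.19 there.

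The 8 genes grouped here are those for eIF2 and eIF2B together with the separate factor EIF2A. Of these 8, 7 were lower in 2DG+CC than in 2DG, with a median of -0.53, against -0.23 for all measured genes. In this comparison 31 of the 41 translation factors were below 0, and 39.7% of all measured genes were above 0. EIF2S2, the beta subunit of eIF2, was the only one past 2-fold. It read 11.29 in 2DG+CC, 12.06 in 2DG+VST, 12.13 in 2DG+Phen, 12.38 in 2DG, 12.38 in CC, 12.56 in VST, 12.20 in Phen and 12.11 in Control. The 2DG+CC array was the lowest, and the other 7 lay between 12.06 and 12.56. The difference was -1.09, but a dimmer probe set of the gene differed by 0.61 in the opposite direction, at 6.72 in 2DG+CC and 6.11 in 2DG. The call was also lost with centred arrays (-0.87) and with the median over probe sets (-0.24).

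EIF2A had its own lowest value on the 2DG+CC array (10.94) and its highest on the 2DG array (11.62), a difference of -0.68. The 5 subunits of eIF2B, the exchange factor that recharges eIF2 with GTP, had ranges of 0.67 to 0.86. In 2DG+CC, EIF2B1, EIF2B4 and EIF2B5 were at -0.57, -0.49 and -0.57, EIF2B2 at -0.14 and EIF2B3 at 0.23. EIF2B3 was the highest of the whole list in 2DG+VST against 2DG (0.74). EIF2S3, the gamma subunit that binds the initiator tRNA, was lowest on the CC array (9.16), at -0.58 against Control. With centred arrays 5 of these 8 genes remained below 0 in 2DG+CC.

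The 12 measured subunits of eIF3, the scaffold that joins the small subunit to mRNA, moved little. On the brightest probe sets their median range was 0.52, and EIF3A alone passed 2-fold. EIF3A, the largest subunit, read 10.85 in 2DG+CC, 9.96 in 2DG+VST, 10.62 in 2DG+Phen, 11.31 in 2DG, 10.97 in CC, 10.95 in VST, 10.91 in Phen and 10.82 in Control. It was highest on the 2DG array and lowest on the 2DG+VST array, with a difference of -1.35 between them. Versipelostatin alone gave 0.13. The other probe sets of EIF3A were at -1.55 and -0.94 in 2DG+VST against 2DG, in the same direction.

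In 2DG against Control, 10 of the 12 eIF3 subunits were above 0 (4 of 12 with poly-A scaling), led by EIF3H (0.51), EIF3A (0.49) and EIF3F (0.49). These are the brightest probe sets. The dimmer 230570_at of EIF3H was at -0.82, and the other probe sets of EIF3A were at 0.48 and -0.28. Of all measured genes 51.6% were above 0 in this comparison, as were 24 of the 41 translation factors. EIF3B, a core subunit, was lowest on the Phen array (9.49) and reached -0.84 against Control, with its next brightest probe sets at -0.82 and -0.69. EIF3J, a loosely bound subunit, was also lowest on the Phen array (8.68), at -0.62 against Control, and highest on the 2DG+Phen array (9.70), at 0.43 against 2DG.

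**Figure D3:**
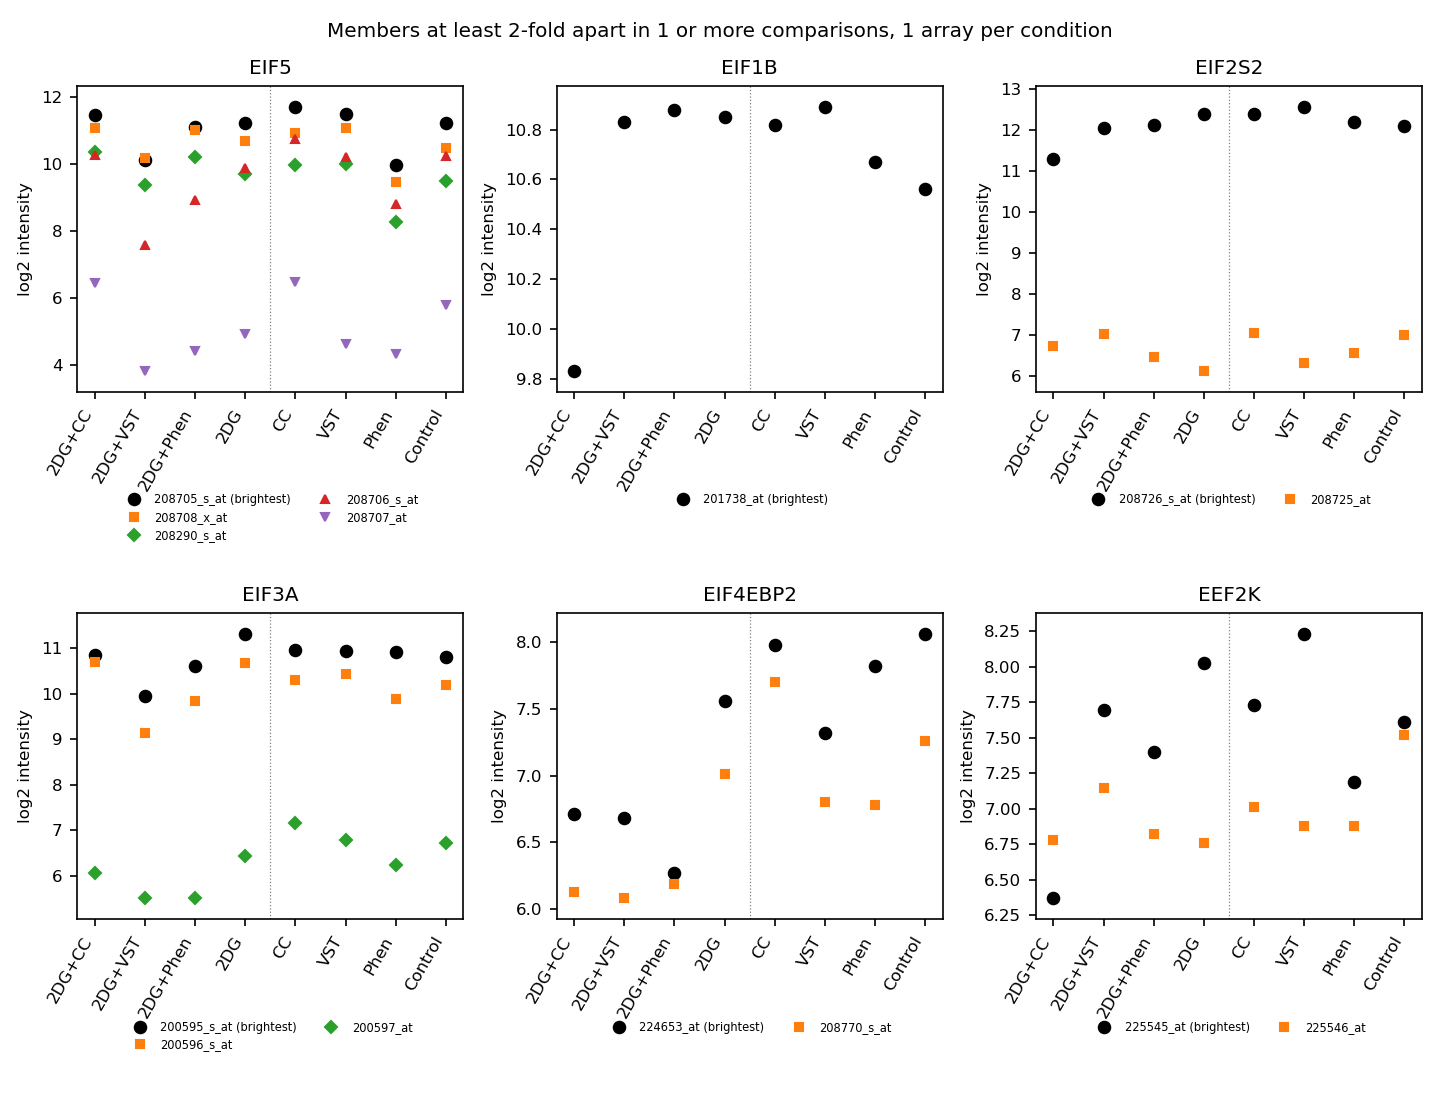
Log2 intensity (y axis) on the 8 arrays (x axis, 2DG arrays left of the dotted line) for the 6 genes that differed at least 2-fold in some comparison; black points are the brightest probe set, coloured points the others over the limit, and y axes differ between panels. All probe sets of EIF5 are lower in Phen than in Control, while the second probe set of EEF2K shows no dip in 2DG+CC.

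The cap-binding and helicase factors gave no 2-fold difference on their brightest probe sets, and the 6 measured had a median range of 0.38. EIF4E read 9.25 in 2DG+CC, 9.05 in 2DG+VST, 8.74 in 2DG+Phen, 8.74 in 2DG, 9.14 in CC, 9.33 in VST, 9.08 in Phen and 9.72 in Control, with the Control array the highest. Its other probe sets were at -0.74 and -0.96 in 2DG against Control. In 2DG+CC against 2DG they did not agree, at 0.51 on the brightest, 0.14 on the next and -1.25 on the dimmest.

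EIF4E2, a cap-binding relative that represses translation, read 9.69 in 2DG+CC, 9.65 in 2DG+VST, 9.85 in 2DG+Phen, 9.04 in 2DG, 9.50 in CC, 9.08 in VST, 9.40 in Phen and 9.40 in Control. All 3 compounds in 2DG were above 2DG alone, by 0.65, 0.61 and 0.81. Its next probe set gave 0.82, 0.63 and 0.82, and the dimmest over the limit 0.86, -0.49 and -0.88. EIF4G1, the scaffold that links eIF4E to eIF3, ranged from 9.53 to 9.94. Its relative EIF4G3 was not analysed here. Of the helicase pair, EIF4A1 had only shared probe sets, and EIF4A2 had a probe set of its own at 1.95 to 2.26, under the limit. EIF4B and EIF4H, which assist the helicase, had ranges of 0.36 and 0.32 on their brightest probe sets.

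The 4E-BP repressors were unlike each other. EIF4EBP2 read 6.71 in 2DG+CC, 6.68 in 2DG+VST, 6.27 in 2DG+Phen, 7.56 in 2DG, 7.98 in CC, 7.32 in VST, 7.82 in Phen and 8.06 in Control. The 3 arrays of 2DG with a compound were the lowest, and the Control array was the highest. Against 2DG the difference was -1.29 with phenformin, -0.88 with versipelostatin and -0.85 with compound C, and the other probe set over the limit gave -0.82, -0.93 and -0.88. These levels are close to the limit of 6, and the call with phenformin was lost after quantile normalization (-0.99) and stood at -1.01 with centred arrays.

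EIF4EBP1 read 10.28 in 2DG+CC, 10.63 in 2DG+VST, 10.42 in 2DG+Phen, 10.66 in 2DG, 11.09 in CC, 11.12 in VST, 10.59 in Phen and 10.36 in Control. It was highest on the VST and CC arrays, 0.77 and 0.73 above Control. In 2DG+CC, 2DG+VST and 2DG+Phen it was at -0.39, -0.03 and -0.24 against 2DG.

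Of the elongation genes, EEF2K, the kinase that phosphorylates and stops eEF2, gave the largest difference of the list. It read 6.37 in 2DG+CC, 7.70 in 2DG+VST, 7.40 in 2DG+Phen, 8.03 in 2DG, 7.73 in CC, 8.23 in VST, 7.19 in Phen and 7.61 in Control. The 2DG+CC array was lowest, at -1.65 against 2DG, while compound C alone differed from Control by 0.12. The gene's second probe set was at 6.78 in 2DG+CC and 6.76 in 2DG (0.02), so the call rests on 1 of its 2 probe sets and was lost with their median (-0.82). EEF2, the translocation factor that the kinase acts on, ranged over 0.44 and was lowest on the Control array (12.84).

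EIF5A, the hypusine-bearing factor that helps ribosomes through difficult peptide bonds, was the highest of the list in 2DG+CC. It read 12.29 in 2DG+CC, 11.79 in 2DG+VST, 11.65 in 2DG+Phen, 11.37 in 2DG, 11.57 in CC, 11.72 in VST, 11.59 in Phen and 11.79 in Control. The difference of 0.92 from 2DG was under 2-fold on the brightest probe set, and the other 2 passed it, at 1.16 and 1.26. EEF1D, which recharges eEF1A with GTP, ranged over 0.36.

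ETF1, the release factor that reads stop codons, came close to a call. It was at 9.66 in 2DG+VST, against 10.65 in 2DG (-0.99), and at 9.88 in Phen, against 10.77 in Control (-0.89). In 2DG+Phen against 2DG it was at -0.76. Its second probe set, 201573_s_at, was at -0.93 in Phen but at -0.12 in 2DG+VST and -0.06 in 2DG+Phen. GSPT1, its GTPase partner, ranged over 0.48 on its brightest probe set. Its dimmer 225276_at ran from 5.53 in 2DG+Phen to 6.82 in 2DG+CC. It was at -1.16 in 2DG against Control and 1.21 in 2DG+CC against 2DG, where the brightest was at 0.20 and -0.08. The joining factor EIF5B and EIF6, which keeps the subunits apart, had ranges of 0.62 and 0.33 on their brightest probe sets.

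The 9 measured genes with a pyrimidine start differed from the 24 measured genes with another start in their position relative to the Control array. In 2DG against Control all 9 were above 0, with a median of 0.33 (EEF1A1 lowest at 0.07, EIF2A highest at 0.59), and 7 of the 24 were, with a median of -0.07. The counts were 9 and 9 in VST, with medians of 0.28 and -0.12, and 9 and 4 in Phen, with medians of 0.28 and -0.26. In CC they were 6 and 11, with medians of 0.17 and -0.05. Over all measured genes with a listed start, 63.6% of 569 with a pyrimidine start were above 0 in 2DG against Control, as were 50.3% of 6508 others. The shares were 62.7% and 46.6% in VST, 57.1% and 46.1% in Phen, and 57.3% and 52.9% in CC.

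These counts share the Control array, which was the lowest of the 8 for 4 of the 9 genes and for 2 of the 24. They also depended on the scale: with poly-A scaling 5 of the 9 were above 0 in 2DG and 4 in Phen, with 9 still above 0 in VST, and after quantile normalization 8 were above 0 in VST. In 2DG+CC against 2DG none of the 9 was above 0 as deposited and 7 were with centred arrays. Of the 24, 9 were above 0 as deposited and 16 with centred arrays. Over all measured genes as deposited, 33.0% of the 569 with a pyrimidine start and 39.7% of the 6508 others were. The 9 genes had a median range of 0.50, and EIF2S3 alone exceeded 1 (1.13), against a median of 0.77 for the 24. None of the 9 was called in any comparison, against 4 of the 24 and 51.3% of all measured genes. EIF2S2, EIF3A, EIF3E, EIF3G, EIF3H, EIF3L, EIF4EBP1 and EEF1D were not grouped by their start.

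TOP mRNAs known from textbooks overlap this group in part. Of 9 such genes on the list (EEF1A1, EEF1B2, EEF1D, EEF1G, EEF2, EIF3E, EIF3F, EIF3H and EIF4B), 7 were measured. All 7 were above 0 in 2DG, VST and Phen against Control as deposited, and 5 of 7 in CC, against 51.6%, 48.1%, 47.4% and 53.3% of all measured genes, while with poly-A scaling 5, 7 and 2 were in 2DG, VST and Phen, and after quantile normalization 6 were in VST. Their ranges over the 8 arrays ran from 0.10 (EEF1A1) to 0.57 (EIF3H), with a median of 0.36, against 0.73 for the other 34 measured genes. These are ranges of the brightest probe sets, and some dimmer ones of these genes varied more. Over the limit, the widest was 230570_at of EIF3H, from 6.13 in 2DG to 7.8 in 2DG+VST. It passed 2-fold in 2DG+CC, 2DG+VST and 2DG+Phen against 2DG (1.26, 1.67 and 1.2), and was at -0.82 in 2DG against Control. For EIF4B, 211937_at ran from 9.43 in Control to 10.64 in 2DG+Phen, while 219599_at stayed between 7.93 and 8.34. For EIF3E, 235429_at ran from 5.93 in CC to 6.78 in 2DG+VST. For EEF1A1, 227708_at was 0.77 higher in Phen than in Control.

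**Figure D4:**
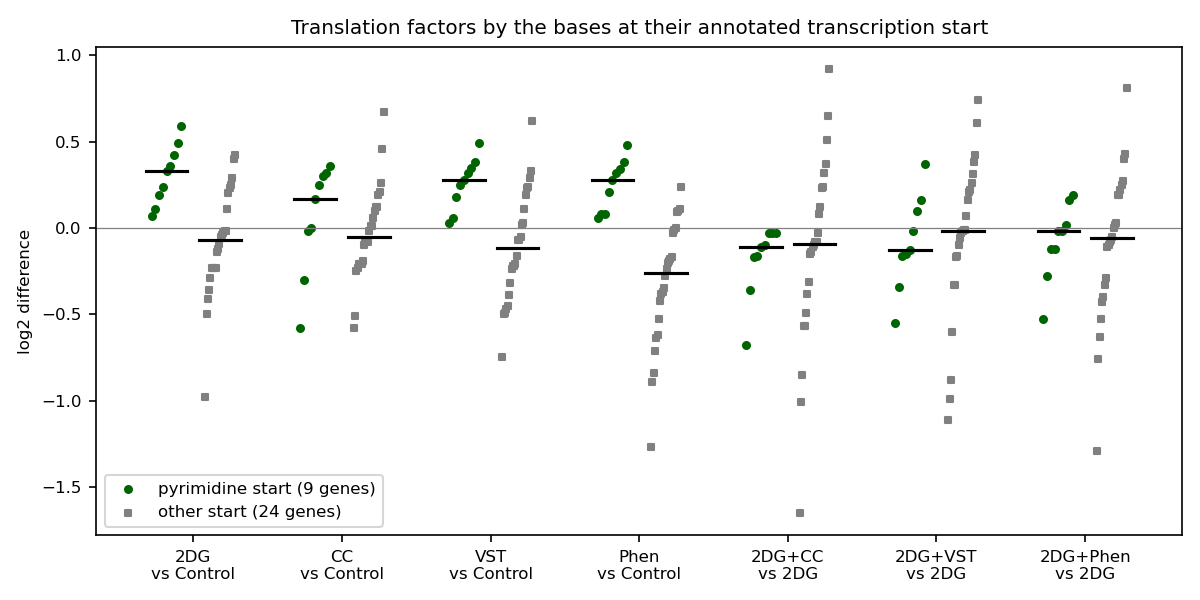
Log2 difference (y axis) in the 7 comparisons for 9 genes with a pyrimidine start (green circles) and 24 with another start (grey squares), in order of value, with bars at the medians. In 2DG, VST and Phen against Control the 9 genes all lie above 0, between 0.03 and 0.59.

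Probe sets other than the brightest were also read. Of 51 such probe sets over the limit, 16, from 12 genes, differed at least 2-fold between the 2 arrays of some comparison. Of their calls 16 were upwards and 17 downwards, and the share over the probe sets of all genes was not counted. Some went with the brightest, as for 200596_s_at of EIF3A in 2DG+VST against 2DG (-1.55, against -1.35). Others parted from it. The largest call was that of 236274_at of EIF3B, at 6.62 in 2DG+CC, 7.81 in 2DG+VST and 8.07 in 2DG+Phen, against 4.06 in 2DG. The other 3 probe sets of EIF3B over the limit were at -0.53 to -0.67 in 2DG+Phen. The EIF1 probe set 228967_at was high on the arrays with compound C, with 10.70 in 2DG+CC, against 6.73 in 2DG, and 9.46 in CC, against 7.20 in Control. The other EIF1 probe sets over the limit were at -0.15 to 0.26 in 2DG+CC. EIF3M probe set 239848_at was at 3.59, 2.29 and 1.54 in 2DG+CC, 2DG+VST and 2DG+Phen, and at -1.82 in 2DG against Control, where the brightest was at 0.33. What part of each transcript these probe sets read was not tested.

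**Figure D5:**
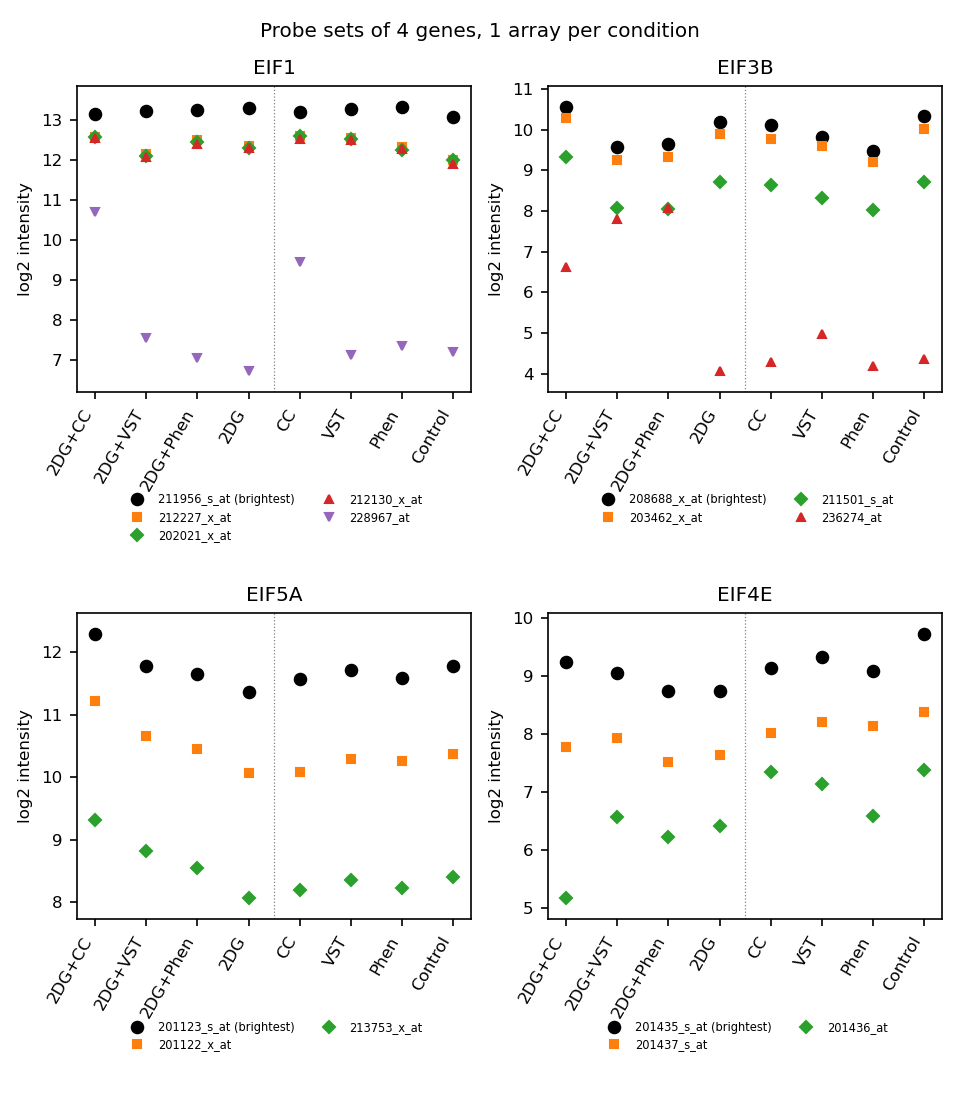
Log2 intensity (y axis) on the 8 arrays (x axis) for every probe set over the limit of EIF1, EIF3B, EIF5A and EIF4E, with the brightest in black. The dim probe sets 228967_at and 236274_at part from the others of their gene in 2DG+CC (10.70 and 6.62), while the 3 probe sets of EIF5A run together.

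The 13 probe sets annotated to a listed gene and to other genes as well were read by themselves. Of the bright ones, 3 probe sets of EEF1G with MIR3654 lay between 12.96 and 13.44, and 3 of EIF3C with EIF3CL, its near copy, between 11.21 and 11.92. Those of EIF4A1 and EIF4A2 share their annotation with small nucleolar RNA genes. For EIF4A2, 200912_s_at lay between 11.65 on the CC array and 12.80 on the 2DG+Phen array.

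Outside the list, 14 other cytosolic factors and poly(A)-binding proteins of 19 were measured, and 5 were called in some comparison. DDX3X, a helicase used in initiation, was at 7.03 in 2DG+VST and 7.17 in 2DG+Phen, against 10.44 in 2DG (-3.42 and -3.27). EIF1AD, an EIF1A-like protein, was at 1.32 and 1.66 in the same comparisons. GSPT2, a relative of GSPT1, was at -1.14 and -1.43, and HBS1L, a ribosome rescue GTPase, at -1.41 and -1.04.

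Of 18 kinases, modifiers and repressors of the factors, 15 were measured and 8 called. EIF4ENIF1, which carries eIF4E into the nucleus, was at -2.48 in 2DG+VST and -1.79 in 2DG+Phen. GIGYF2, a partner of EIF4E2, was at -2.23 in 2DG+CC and -2.00 in 2DG+VST. MKNK2, a kinase of eIF4E, was 1.42 higher in CC than in Control, and at -1.22, -1.85 and -1.39 in 2DG+CC, 2DG+VST and 2DG+Phen against 2DG. LARP1, which binds the TOP tract, was at -1.45 in 2DG+VST and -1.60 in 2DG+Phen. Of 10 mitochondrial translation factors 9 were measured and 3 called: MTRFR at -2.92, -2.60 and -2.30 in 2DG+CC, 2DG+VST and 2DG+Phen, MTRF1 at -1.57 and MTIF3 at -1.06, both in 2DG+CC. Some of these genes were dim. MTRFR read 6.59, EIF4ENIF1 6.89 and GIGYF2 6.69 in 2DG, close to the limit of 6. On the lower arrays just named they were under it, MTRFR at 3.68, 3.99 and 4.29, EIF4ENIF1 at 4.41 and 5.1, and GIGYF2 at 4.46 and 4.69. The called shares of these lists were 35.7%, 53.3% and 33.3%, against 51.3% of all measured genes and 14.6% of the 41 translation factors.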

How the data were processed

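Total RNA (100 ng) of HT1080 cells was hybridized to 1 array per condition, 8 in all. The deposited values are log2 intensities, which the authors, per the deposited processing notes, made with RMA, a method that corrects background, normalizes between arrays and summarises probe sets. The software that ran it is not given in the sources used here. Of 54675 probe sets, 62 controls were left out, 24 of them poly-A controls. Symbols came from the platform annotation: 41091 probe sets carried 1 symbol, 1801 several and 11721 none. The brightest single-symbol probe set stood for a gene, and a log2 value of 6 on at least 1 array was required. Differences were taken between 2 arrays with no pseudocount, and at least 2-fold was a call; the number of arrays limits the precision, no p-value was computed for 1 array against 1, and an additive model over 2DG and compound was not run. Members and lists were chosen with earlier results of these data known. Named genes were those at least 2-fold apart in some comparison, the 3 with the smallest range, related pairs, and up to 4 per list outside the members; genes near the limit, genes at the extreme of a comparison or role group, and probe sets singled out were added after their values were seen. Start sequences came from RefSeq (GRCh38.p14). Alternatives were a 1.5-fold limit, other limits on dim probe sets, 3 scalings, the median probe set, and leaving out probe sets ending _x_at or _s_at. The code was tested on simulated data. Python 3.11.15, numpy 2.4.6 and pandas 2.3.3 were used.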

Additional observations from a re-analysis of the deposited data

Results flagged for a closer look

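For 10 genes a compound differed from its reference in opposite directions in the presence and absence of 2DG, the effects being at least 2-fold apart, which was not tested since each value is 1 array against 1. How many of all measured genes met the same rule was not counted. For compound C the effect in 2DG minus the effect in normal growth conditions was -1.77 for EEF2K, -1.36 for EIF2S2, -1.27 for EIF1B, -1.11 for EIF4EBP1, -1.05 for EIF2A, 1.10 for EIF4E and 1.13 for EIF5A. EIF2A was at -0.68 in 2DG and 0.36 in normal growth conditions, and EIF4EBP1 at -0.39 and 0.73. For versipelostatin it was -1.47 for EIF3A and -1.35 for EIF5, and for phenformin 1.05 for EIF3J. Some effects in normal growth conditions were small, at 0.12 for EEF2K with compound C and 0.13 for EIF3A with versipelostatin. The second probe set of EEF2K was at 0.02 in 2DG and -0.52 in normal growth conditions, and that of EIF2S2 at 0.61 and 0.07. These did not meet the rule, nor did the other probe sets of EIF4E over the limit. Those of EIF5A, EIF3A and EIF3J did, and those of EIF5 were mixed.

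Of the probe sets shared between a listed gene and small RNA genes, 3 were dim on the Control array and over the limit on the 2DG+VST array: 241843_at (EIF5 and SNORA28) read 6.80 in 2DG+VST, against 2.47 in Control, a difference of 4.34, 1555996_s_at (EIF4A2 with MIR1248 and small nucleolar RNA genes) 8.32, against 4.31 (4.01), and 214805_at (EIF4A1 with small nucleolar RNA genes) 7.27, against 5.68 (1.59). Which transcript they read was not tested. Each condition had 1 array, so no array was compared with others of its condition.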

How the results depend on the processing

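The counts and medians were recomputed under 9 alternatives, which gave 182 values, of which 141 moved by less than 1.2-fold (medians) or 1.5 times (counts); the causes were not tested. A limit of 7 or none left every count and median of the list so. At a 1.5-fold limit the genes higher and lower were 1 and 1 in 2DG, 2 higher in CC, 2 and 1 in VST, 6 lower in Phen, and 2 and 5 in 2DG+CC, 2 and 5 in 2DG+VST and 1 and 4 in 2DG+Phen. With arrays centred, 1 was lower in 2DG, against 2.08% of all measured genes. In 2DG+CC 1 was higher, against 11.9%, and 1 lower, against 20.9%. In 2DG+VST 1 was lower, against 14.8%, and in 2DG+Phen 1 was higher, against 8.65%. The median in 2DG+Phen became 0.21. With poly-A scaling, 1 was lower in 2DG (median -0.18), 4 in Phen (-0.25), 31 in 2DG+CC (-1.14), 6 in 2DG+VST (-0.66) and 4 in 2DG+Phen (-0.51). Of all measured genes, 5.46%, 7.09%, 62.2%, 39.9% and 36.1% were lower in these comparisons, in the same order. Quantile normalization left 0 lower in 2DG+Phen, where 16.4% of all measured genes were lower and EIF4EBP2 was at -0.99. With the median over probe sets, 1 was higher in 2DG, against 3.11% of all measured genes. In 2DG+CC 1 was higher, against 8.72%, and 1 lower, against 24.7%, and in 2DG+VST 1 was lower, against 19.1%. Without _x_at and _s_at probe sets, 31 genes remained, and 5924 in the whole series. Of the 31, 1 was lower in 2DG, against 2.94% of the 5924, and 1 higher in CC, against 4.41%. In VST 2 were lower, against 3.56%, and in 2DG+CC 4 were higher, against 9.99%. In 2DG+VST 1 was higher, against 5.47%, and 1 lower, against 22.6%. In 2DG+Phen 1 was higher, against 5.76%. EIF2S2 turned to 0.61 in 2DG+CC. A limit of 9, chosen after seeing the data, left 36 genes and 0 lower in 2DG+Phen, where 11.2% of all genes over that limit were lower. Among the differences of the genes called, 21 of 35 values kept within 1.2-fold, 13 moved and 1 reversed. Each condition had 1 array, so replicates could not be paired, and a model pairing arrays by compound was not run.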
